A study of Mus musculus with 24 samples.

Results

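Mx1, Rsad2, Cmpk2, Bst2, Isg20, Rtp4, Ifi44, Ifi35, Rnf213 and Apol9b are 10 genes of the antiviral programme that type I interferon switches on. They were read by gene name from the deposited table of 38215 genes, and all 10 were found there once and passed the filter on low counts. They were chosen by their measured RNA, as antiviral effectors that were much higher under pegylated interferon alpha (pegIFN) than under vehicle in these libraries, with no numerical threshold, so their pegIFN-against-vehicle values below are a description and carry no test. The genotype comparisons and the interaction were not part of that choice and were tested. Polyadenylated RNA was sequenced from long-term haematopoietic stem cells, sorted as lineage-negative Sca1+ cKit+ CD150+ CD48- cells, in 24 libraries from 12 chimeric mice. Every recipient was a C57BL/6J mouse heterozygous for the Ptprc a and b alleles that had received 11 Gy of irradiation and then 2000000 bone marrow cells, equally from both kinds of donor. Each mouse gave 1 library of CD45.1+ CD45.2- wild-type cells (C57Bl/6N Ptprca) and 1 of CD45.1- CD45.2+ mutant cells (C57Bl/6N Jak2V617F/+ Tg(E2A-cre)), so the 2 genotypes shared the host, the treatment and the sort. The Jak2V617F allele is heterozygous and was switched on by the Tg(E2A-cre) transgene, and it keeps the kinase Jak2 active, the usual driver of polycythaemia vera. The 4 groups of 6 were wild-type and Jak2V617F cells of mice given vehicle, and wild-type and Jak2V617F cells of mice given 600 ng pegIFN weekly, 5 doses over 4 weeks. Cells were taken 48 h after the last dose.

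Type I interferon binds a receptor made of Ifnar1 and Ifnar2, whose kinases Jak1 and Tyk2 phosphorylate transcription factors. Stat2 and Irf9 are parts of the complex ISGF3, which binds the interferon-stimulated response element (ISRE) in promoters, a repeat of GAAA. The genes described here act against different steps of viral infection, among them replication and release. In blood stem cells, interferon alpha is known to break quiescence, and it is used to treat myeloproliferative neoplasms.

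Promoter windows from RefSeq (build GRCm38.p6, 250 bases before to 50 after a transcript start) were matched for 8 of the 10 genes. The ISRE core was searched on both strands as GAAA, 2 bases of any kind and GAAA again, with overlapping matches counted. It was in the windows of 3 of the 8 genes, Rsad2, Bst2 and Apol9b, against 3.99% of the 27025 genes with windows. A longer-spaced form, with 3 bases between the 2 copies of GAAA, was searched after these sequences were seen. It was in 2 of the 8, Rsad2 and Ifi44, against 3.17% of genes, and because of that order nothing is read from this count. The 4 promoters that hold either form are shown, Ifi44 for the spaced form alone. The matched bases are in capitals, 5′ to 3′ on the gene's strand.
Rsad2, chr12:26456403-26456702, minus strand: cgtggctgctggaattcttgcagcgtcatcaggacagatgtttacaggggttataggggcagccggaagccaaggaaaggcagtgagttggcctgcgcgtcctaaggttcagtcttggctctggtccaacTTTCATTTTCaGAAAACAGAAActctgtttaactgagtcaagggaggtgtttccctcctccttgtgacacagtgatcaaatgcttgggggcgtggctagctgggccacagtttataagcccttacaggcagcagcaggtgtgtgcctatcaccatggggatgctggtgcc
Bst2, chr8:71537423-71537722, minus strand: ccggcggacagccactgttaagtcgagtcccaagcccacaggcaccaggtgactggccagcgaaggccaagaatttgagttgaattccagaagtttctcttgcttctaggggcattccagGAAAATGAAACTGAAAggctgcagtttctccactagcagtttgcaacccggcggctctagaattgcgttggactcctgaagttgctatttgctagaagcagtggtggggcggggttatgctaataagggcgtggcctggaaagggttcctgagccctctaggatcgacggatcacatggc
Apol9b, chr15:77411031-77411330, minus strand: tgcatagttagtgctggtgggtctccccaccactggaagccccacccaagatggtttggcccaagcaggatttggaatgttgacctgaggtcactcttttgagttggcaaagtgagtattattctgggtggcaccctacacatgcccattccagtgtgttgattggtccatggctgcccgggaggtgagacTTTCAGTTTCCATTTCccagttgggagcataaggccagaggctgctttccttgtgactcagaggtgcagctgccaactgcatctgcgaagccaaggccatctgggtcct
Ifi44, chr3:151749861-151750160, minus strand: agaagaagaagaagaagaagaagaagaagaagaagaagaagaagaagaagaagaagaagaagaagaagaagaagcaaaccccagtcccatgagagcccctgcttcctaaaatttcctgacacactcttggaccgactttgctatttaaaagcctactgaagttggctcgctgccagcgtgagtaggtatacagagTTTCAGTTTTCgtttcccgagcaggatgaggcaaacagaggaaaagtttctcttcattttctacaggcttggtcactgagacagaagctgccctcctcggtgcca
In Rsad2 the 2 forms lie side by side, the core from base -120 and the spaced form from base -109 relative to the start. Bst2 has 2 overlapping cores, from bases -130 and -124, and the Apol9b window 2 overlapping cores, from bases -59 and -53. The gamma-activated sequence of interferon-responsive genes, searched as TTCNNNGAA, was in the windows of Bst2, Isg20 and Ifi35, against 9.55% of genes. Cmpk2 and Rnf213 had none of the 3 forms in these windows. The Rnf213 window (chr11:119389849-119390148, plus strand) ends before the start of the gene in the authors' table (119393100). The bases next to that start were therefore not searched. A match is a string of letters and not a measured binding site.

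The authors' table places the genes on 7 chromosomes of GRCm38, and all are protein-coding. Rsad2 (chr12:26442753-26456452, minus strand) and Cmpk2 (chr12:26469204-26479835, plus strand) are neighbours 12752 bp apart on opposite strands. Ifi35 (chr11:101448407-101458698) and Rnf213 (chr11:119393100-119487418) share a chromosome but lie far apart, as do Mx1 (chr16:97447035-97462907) and Rtp4 (chr16:23609919-23614222). Bst2 lies at chr8:71534264-71537437, Isg20 at chr7:78913424-78920362, Ifi44 at chr3:151730922-151749947 and Apol9b at chr15:77403789-77411080. The gene that the table calls Apol9b (ENSMUSG00000057346) is called Apol9a in GENCODE M21 and RefSeq, and the table's name is used here. In GENCODE M21, part of the exon sequence of 5 of the genes was identical to another gene over a 75-base read, which can make the division of reads uncertain: 13.75% of the windows of Apol9b with Apol9a, 10.46% of Rtp4 with Gm45338, 7.423% of Ifi35 with its antisense gene Gm11626, 4.062% of Rnf213 with A930037H05Rik and 1.712% of Mx1 with Mx2. Rsad2, Cmpk2, Bst2, Isg20 and Ifi44 shared none. Of the deposited values, 24 were not whole numbers for Apol9b and for Ifi35, 23 for Mx1, 6 for Rnf213 and 1 each for Bst2 and Isg20. For Rtp4, Rsad2, Cmpk2 and Ifi44 there were 0, so no divided reads were seen for Rtp4.

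Library totals were 24.6 to 39.7 M counts. All 10 markers of LT-HSCs (among them Procr, Hlf and Mecom) were detected in every group, and their summed level was 1670 to 2469 CPM (counts scaled to library size) in wild-type vehicle libraries and 1003 to 1395 under pegIFN. In Jak2V617F libraries the sum was 1293 to 1769 under vehicle and 905 to 1538 under pegIFN. Markers of plasmacytoid dendritic cells, known for making interferon, summed to 260 to 427 CPM over all libraries. Of the 8, 4 or 5 were below 1 CPM in each group, and Klk1 was at 0 in wild-type vehicle libraries. The sum thus rests on part of the list and does not show that such cells were in the sort. Jak2 RNA was lower in Jak2V617F cells under vehicle (log2 difference -0.22 ± 0.07 SE, adjusted p = 0.0331) and under pegIFN (-0.30 ± 0.07 SE, adjusted p = 0.0091), and gene counts cannot show the mutation. Xist was high in most wild-type libraries and low in most Jak2V617F ones, so the sex of the donor and the genotype cannot be told apart. On Xist, wild-type vehicle replicate 4 and Jak2V617F pegIFN replicate 1 stood apart from their groups (Xist 599.8 and 653.9 CPM, against 1937 to 3310 in the other 5 wild-type vehicle libraries and 40.8 to 110 in the other 5 Jak2V617F pegIFN libraries). The sum of 4 Y-linked genes was at 112% of the mean of Jak2V617F vehicle libraries in that wild-type library, against 9.09 to 34.1% in the other wild-type vehicle libraries, and at 67.2% in that Jak2V617F pegIFN library, next to 71.1 to 97.4% in the others of its group. In wild-type pegIFN libraries it was at 0.975 to 10.2%. Genotype calls are therefore also given without both libraries, where Jak2 was at -0.25 under vehicle (adjusted p = 0.0374) and -0.31 under pegIFN (adjusted p = 0.0143). The vehicle call of Jak2 was lost without the mice of both libraries (adjusted p = 0.0588) and in 6 of the 24 fits that left out 1 library (wild-type replicates 3, 5 and 6, Jak2V617F replicates 1, 2 and 4; highest adjusted p 0.0809).

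Mx1, a dynamin-like GTPase that blocks early steps of influenza virus replication, and Apol9b, an apolipoprotein L family member, were close to the floor in vehicle-treated stem cells. Mx1 had a lowest, median and highest level of 0.876, 1.97 and 2.40 CPM in wild-type vehicle libraries, and 73.9, 92.3 and 124 CPM in wild-type pegIFN libraries. In Jak2V617F cells these were 0.564, 1.36 and 2.95 CPM under vehicle and 79.3, 96.4 and 127 CPM under pegIFN. Every pegIFN library was above every vehicle library, and the lowest wild-type pegIFN value was 30.8 times the highest wild-type vehicle value. C57BL/6 and most other inbred laboratory strains are known to carry an Mx1 allele that makes no working protein, which RNA counts do not show. Apol9b ran from 1.07 to 1.97 CPM (median 1.44) in wild-type vehicle and from 63.7 to 101 CPM (median 85.7) in wild-type pegIFN libraries. In Jak2V617F libraries it ran from 0.592 to 2.10 CPM (median 1.23) and from 60.6 to 117 CPM (median 84.0). Both genes spread widely under vehicle, with coefficients of variation of 31.2% and 23.4% in wild-type and 57.2% and 44.2% in Jak2V617F libraries, where a library held only 17.0 to 95.6 counts of Mx1 and 17.2 to 64.0 of Apol9b over both genotypes.

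Rsad2 (viperin, a radical SAM enzyme that makes a chain-terminating nucleotide) and Cmpk2 (a mitochondrial nucleotide kinase that supplies it with substrate) started from a clear basal level. Rsad2 had a lowest, median and highest level of 19.9, 27.0 and 32.2 CPM in wild-type vehicle and 168, 199 and 234 CPM in wild-type pegIFN libraries. In Jak2V617F cells it had 15.1, 20.1 and 24.3 CPM under vehicle and 167, 190 and 198 CPM under pegIFN. Within each treatment the genotypes overlapped, and the treatments did not overlap in either genotype. Cmpk2 had 26.6, 30.1 and 37.3 CPM in wild-type vehicle and 220, 249 and 313 CPM in wild-type pegIFN libraries. Its Jak2V617F libraries had 22.1, 25.9 and 29.99 CPM under vehicle and 198, 203 and 228 CPM under pegIFN. The neighbours thus had like levels in every group, with the mean of Cmpk2 above that of Rsad2 in all 4 per kilobase of exon.

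Bst2 (tetherin, which holds budding virions at the cell surface) was the most abundant of the genes per kilobase of exon in every group. It ran from 35.4 to 42.4 CPM (median 39.5) in wild-type vehicle and from 268 to 316 CPM (median 298) in wild-type pegIFN libraries. In Jak2V617F libraries it ran from 35.9 to 54.4 CPM (median 43.6) and from 260 to 344 CPM (median 302). Isg20, an exonuclease that degrades single-stranded RNA, had a mean of 24.9 ± 1.84 CPM (SD, n = 6) in wild-type vehicle and 145 ± 12.5 CPM in wild-type pegIFN libraries. Its Jak2V617F means were 23.2 ± 3.00 and 134 ± 12.7 CPM. These 2 genes had coefficients of variation of 6.65 to 8.61% in wild-type and 9.47 to 16.1% in Jak2V617F libraries.

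Rtp4, a chaperone of receptor transport that also acts against viral RNA replication, had a mean of 17.2 ± 1.79 CPM (SD, n = 6) in wild-type vehicle and 162 ± 15.7 CPM in wild-type pegIFN libraries. Its Jak2V617F means were 15.4 ± 2.70 and 162 ± 18.9 CPM. Ifi44, an interferon-induced protein with antiviral and antiproliferative activity, had coefficients of variation under vehicle of 24.4% in wild-type and 21.1% in Jak2V617F libraries. Its lowest, median and highest levels were 20.5, 26.0 and 39.3 CPM in wild-type vehicle and 301, 362 and 439 CPM in wild-type pegIFN libraries. In Jak2V617F cells they were 12.4, 20.4 and 23.4 CPM under vehicle and 241, 319 and 402 CPM under pegIFN. Ifi35, a leucine zipper protein that binds Nmi, had means of 32.5 ± 2.54 and 131 ± 8.08 CPM in wild-type and 33.6 ± 2.83 and 123 ± 6.86 CPM in Jak2V617F cells (vehicle, then pegIFN).

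Rnf213, a giant ubiquitin ligase that coats lipid droplets and intracellular pathogens and is the susceptibility gene of moyamoya disease, held most of the reads of the 10 genes. It made up 68.1 to 71.6% of their summed counts in wild-type vehicle libraries and 54.3 to 63.7% in Jak2V617F pegIFN libraries. Its lowest, median and highest levels were 399, 456 and 560 CPM in wild-type vehicle and 2775, 3157 and 3842 CPM in wild-type pegIFN libraries. In Jak2V617F libraries they were 382, 414 and 444 CPM under vehicle and 1939, 2451 and 2655 CPM under pegIFN. Under pegIFN all 6 Jak2V617F libraries were below all 6 wild-type libraries, whereas under vehicle the genotypes overlapped. The 10 genes together took 0.0585 to 0.0794% of all counts in wild-type vehicle libraries and 0.441 to 0.570% in wild-type pegIFN libraries. For Jak2V617F cells the shares were 0.0545 to 0.0654% and 0.357 to 0.428%.

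**Figure D1:**
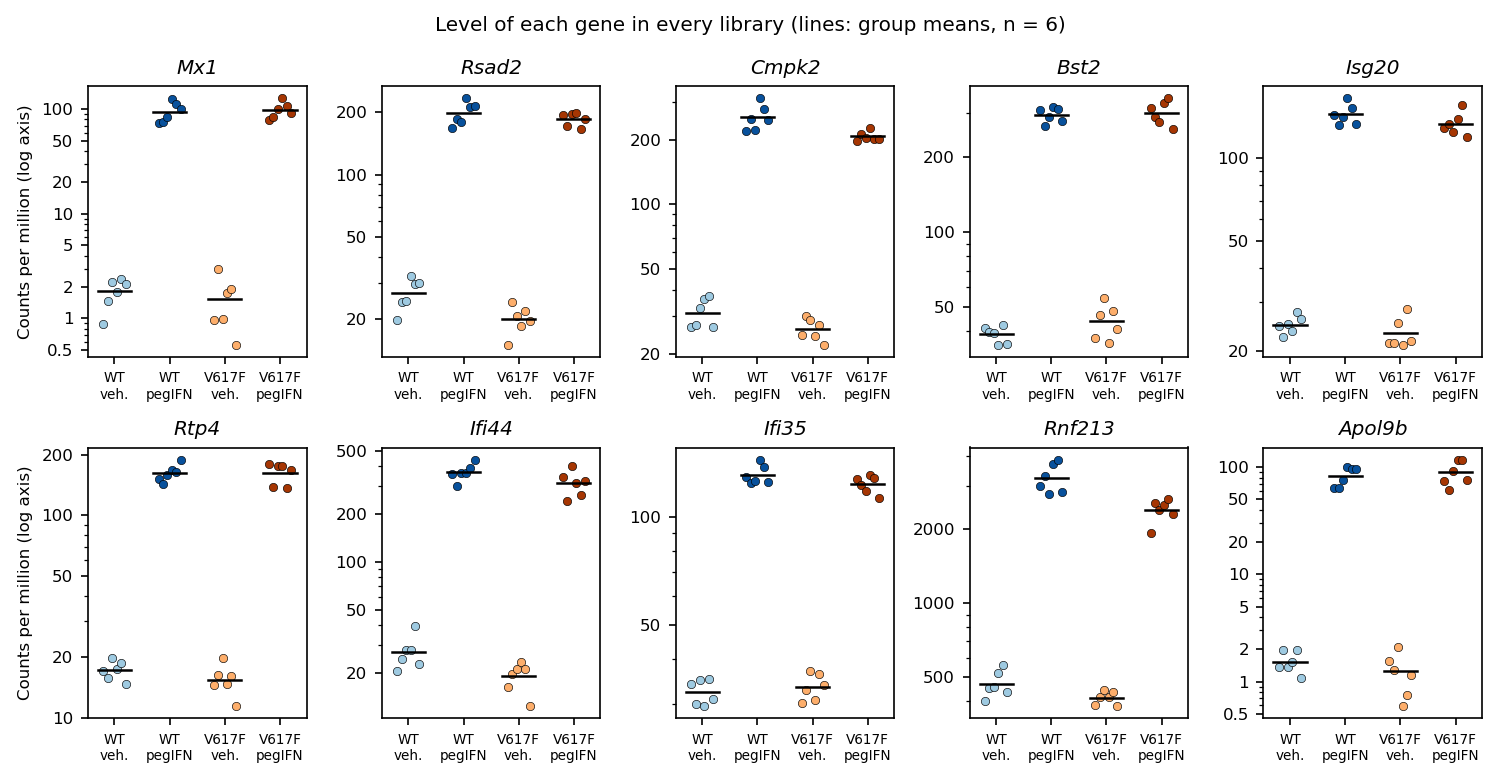
CPM (log axis, 1 panel per gene) in every library of the 4 groups, with lines at the group means of 6 libraries; WT is wild-type, V617F is Jak2V617F and veh. is vehicle. In each panel all pegIFN libraries lie above all vehicle libraries, and only for Rnf213 do the Jak2V617F pegIFN libraries (1939 to 2655 CPM) lie wholly below the wild-type pegIFN libraries (2775 to 3842 CPM).

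Per kilobase of exon, the order in wild-type vehicle libraries was Bst2 (43.1 CPM per kb), Rnf213 (27.9), Ifi35 (18.8), Isg20 (13.4), Rtp4 (8.05), Cmpk2 (7.48), Rsad2 (6.17), Ifi44 (4.43), Mx1 (0.482) and Apol9b (0.258). The ranges of neighbours in this order did not overlap down to Isg20 and Rtp4. They overlapped along Rtp4, Cmpk2, Rsad2 and Ifi44, and again between Mx1 and Apol9b. Among 15604 genes ranked per kilobase in that group, Bst2 stood above 92.9% and Apol9b above 8.63%. In wild-type pegIFN libraries Bst2 (327 CPM per kb) and Rnf213 (192) still led, and the ranges of Isg20, Rtp4, Ifi35, Cmpk2, Ifi44 and Rsad2 each overlapped the next. Mx1 (25.1 CPM per kb) and Apol9b (13.9) were last there too, with no overlap between them, although their change was the largest of the 10.

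The pegIFN-against-vehicle differences were largest for Apol9b and Mx1 and smallest for Ifi35 in both genotypes. Apol9b and Mx1 were 53.5 and 52.5 times higher in wild-type cells (log2 difference 5.74 ± 0.24 and 5.71 ± 0.27 SE) and 72.0 and 63.7 times higher in Jak2V617F cells (6.17 ± 0.25 and 5.99 ± 0.28 SE). Ifi44 was 13.6 times higher in wild-type and 16.5 times higher in Jak2V617F cells. Rtp4, Cmpk2, Bst2, Rsad2, Rnf213 and Isg20 lay between 5.83 and 9.46 times in wild-type cells and between 5.76 and 10.5 times in Jak2V617F cells. Ifi35 had the smallest difference, 4.02 times in wild-type (log2 2.01 ± 0.06 SE) and 3.66 times in Jak2V617F cells (1.87 ± 0.06 SE). The median log2 difference of the 10 was 2.98 in wild-type and 3.10 in Jak2V617F cells, against -0.01 over all 15879 genes tested in each. All 10 had pegIFN libraries wholly above vehicle libraries in both genotypes, where 15.1% of all genes did so in wild-type and 9.81% in Jak2V617F cells, and since the genes were picked for this contrast nothing is read from that count. In bulk RNA a change in the makeup of the sorted cells and a change in RNA per cell cannot be told apart, and markers of other lineages moved too. Erythroid markers summed to 164 to 442 CPM in wild-type vehicle and 497 to 893 CPM in wild-type pegIFN libraries. Those of T and NK cells summed to 37.3 to 82.7 and 70.9 to 105 CPM, with 6 of the 8 below 1 CPM in each group. The wild-type median of the megakaryocyte sum was also higher under pegIFN (1444 and 1953 CPM). Medians were lower for granulocyte and monocyte (503 and 372 CPM), B cell (18.6 and 13.4 CPM) and endothelial and stromal markers (94.8 and 76.5 CPM). Their part in the result was not tested.

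**Figure D2:**
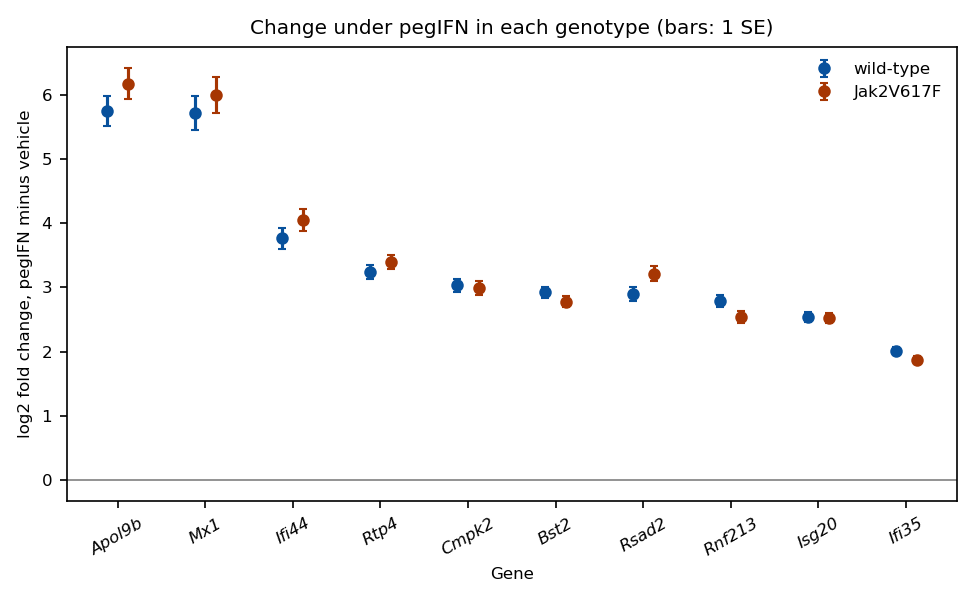
Log2 fold change of pegIFN minus vehicle for each gene in wild-type and Jak2V617F cells, with bars of 1 standard error of the fit. Apol9b and Mx1 stand near 6 on this scale, Ifi44 near 4 and Ifi35 near 2 in both genotypes.

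The genes that carry the interferon signal moved in both directions. A gene is called changed here at an edgeR quasi-likelihood adjusted p under 0.05, which 28.2% of all genes tested met upwards and 28.7% downwards for pegIFN in wild-type cells. With upper-quartile scaling, which lowers the median of all genes to -0.10, the calls were 3495 higher and 5400 lower in place of 4474 and 4553. Of 6 receptor and ISGF3 genes examined, 3 rose and 2 fell. Stat2 rose most (log2 1.77 ± 0.12 SE, adjusted p = 1.371e-11), then Irf9 (0.92) and Tyk2 (0.39), whereas the receptor chain Ifnar1 (-0.42) and the kinase Jak1 (-0.35) fell and Ifnar2 was at -0.06 (adjusted p = 0.378). In Jak2V617F cells, where 21.7% of all genes tested rose and 22.3% fell (3446 and 3545 genes, or 2678 and 4223 with upper-quartile scaling), 2 of the 6 rose and 2 fell, with Tyk2 at 0.02 (-0.04 with upper-quartile scaling, adjusted p = 0.91 in the main test). Of 6 interferon regulatory factors, only Irf7, the amplifier of interferon production, rose (5.33 ± 0.17 SE), while Irf1 (-0.95) and Irf2 (-0.43) fell. Of 7 feedback genes, 4 rose, among them Usp18, which blocks the receptor (4.49 ± 0.12 SE), Ptpn11 (0.61) and Socs1 (0.52), and 2 fell, with Socs3 at -1.89. Interferon genes themselves, 9 in the table of 11 listed, had too few counts to be tested.

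The relatives of the 10 genes moved in both directions. Of 21 listed relatives 20 were in the table and 12 were tested, of which 7 rose and 3 fell in wild-type cells and 6 rose and 3 fell in Jak2V617F cells. Apol9a was 4.68 CPM in wild-type vehicle and 129 CPM in wild-type pegIFN libraries (log2 4.80 ± 0.20 SE), and Mx2, the sister gene of Mx1, 2.12 and 36.9 CPM (4.12 ± 0.15 SE). Apol11b (-2.30) and Apol8 (-2.27), other apolipoprotein L genes, fell from low levels. In wild-type vehicle and pegIFN libraries Apol11b was at 4.49 and 0.910 CPM and Apol8 at 2.30 and 0.477 CPM. Of 16 other antiviral effectors tested, 14 rose and 0 fell in wild-type cells and 15 rose and 0 fell in Jak2V617F cells. The largest rises were Dhx58, a regulator of RNA sensing (3.16 ± 0.07 SE in both genotypes), Xaf1 (2.77), Tdrd7 (2.07) and the RNA helicase Mov10 (1.84). The median of the 16 was 1.34 in wild-type and 1.31 in Jak2V617F cells. Of all genes tested, 28.2% rose in wild-type and 21.7% in Jak2V617F cells. The lists were chosen with earlier results of these data known, so nothing is read from the counts that rose.

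Under vehicle, 8 of the 10 genes had a lower estimate in Jak2V617F than in wild-type cells, and 2 of them, Rsad2 and Ifi44, passed the test. The median log2 difference of the 10 was -0.21, against -0.01 over all genes. The 2 calls stand against a background of 12.7% of all genes called in either direction and 4.23% called lower (1346 genes higher and 672 lower, or 1120 and 927 with upper-quartile scaling). Rsad2 was 25.1% lower in Jak2V617F cells, 20.0 ± 3.12 against 26.7 ± 4.62 CPM (SD, n = 6), a log2 difference of -0.42 ± 0.11 SE (edgeR adjusted p = 0.0164). It was lower in the Jak2V617F library of all 6 mice, with log2 differences from -0.80 to -0.0042. Ifi44 was at 0.700 times the wild-type level, 19.0 ± 4.01 against 27.1 ± 6.62 CPM (SD, n = 6), a log2 difference of -0.51 ± 0.16 SE (edgeR adjusted p = 0.0321). It too was lower in all 6 mice, with log2 differences from -0.90 to -0.26. Of all genes, 13.3% were lower in all 6 vehicle mice. Without wild-type vehicle replicate 4, one of the libraries that stand apart, Rsad2 was at -0.36 (adjusted p = 0.056) and Ifi44 at -0.51 (adjusted p = 0.0724). The Ifi44 difference was thus almost as large without that library, and the call of Ifi44 also missed the threshold without any 1 of 4 other vehicle libraries (wild-type replicate 5, Jak2V617F replicates 1, 2 and 6; adjusted p 0.0514 to 0.0971). Without both libraries that stand apart the log2 difference was -0.36 for Rsad2 (adjusted p = 0.0611) and -0.51 for Ifi44 (adjusted p = 0.0770). In the fit of only the groups compared the adjusted p was 0.0583 for Rsad2 and 0.0754 for Ifi44, and with no filter it was 0.0619 for Ifi44.

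The mouse can be entered as a block, since both genotypes came from the same animal. In that fit 5 of the 10 genes were called under vehicle, where 31.1% of all genes were. Ifi44 (-0.51 ± 0.11 SE, adjusted p = 0.00326), Rsad2 (-0.42 ± 0.09 SE, adjusted p = 0.00417), Rnf213 (-0.19 ± 0.05 SE, adjusted p = 0.0164) and Cmpk2 (-0.25 ± 0.08 SE, adjusted p = 0.0198) were lower in Jak2V617F cells, and Bst2 (0.16 ± 0.06 SE, adjusted p = 0.0428) was higher. The share of all genes called lower in that fit was 13.6% and higher 17.5%. Rsad2 and Ifi44 were called in all 12 fits that left out 1 mouse, Rnf213 in 11, Cmpk2 in 9 and Bst2 in 3. Rtp4 was also called in 3 of these 12 (lowest adjusted p 0.0412) and Mx1 in 1 (0.0482). Without the mice of both libraries that stand apart, Ifi44 (adjusted p = 0.00618), Rsad2 (0.00837) and Bst2 (0.0458) were called with the block, and Rnf213 (0.0523) and Cmpk2 (0.0863) were not. With all libraries, Isg20, Rtp4, Ifi35, Mx1 and Apol9b were called neither with the block nor without it. With the block the interval of 2 SE on each side ran from -0.21 to -0.0025 for Isg20 (adjusted p = 0.13), from -0.30 to -0.024 for Rtp4 (adjusted p = 0.0849) and from -0.04 to 0.13 for Ifi35. Without the block these intervals were -0.26 to 0.06, -0.36 to 0.05 and -0.08 to 0.17. They were wider for Mx1 (-0.80 to 0.28 with the block and -0.83 to 0.39 without) and Apol9b (-0.84 to 0.15 and -0.88 to 0.24), whose vehicle levels rested on few counts. In these libraries LT-HSC markers also summed lower in Jak2V617F cells, with a median of 1450 against 2008 CPM, and granulocyte and monocyte markers had a median of 939 against 503 CPM with overlapping ranges. Their part in the result was not tested.

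Under pegIFN, Rnf213 and Cmpk2 were the 2 of the 10 genes that differed between genotypes, both lower in Jak2V617F cells, where 8.59% of all genes were called and 4.43% were called lower. Rnf213 was 26.3% lower, 2393 ± 255 against 3247 ± 449 CPM (SD, n = 6), a log2 difference of -0.44 ± 0.09 SE (edgeR adjusted p = 0.00395). It was lower in all 6 mice, with log2 differences from -0.63 to -0.21. All 6 Jak2V617F libraries were below all 6 wild-type libraries, as for 1.81% of all genes. The call held in all 24 fits without 1 library, and without both libraries that stand apart the adjusted p was 0.0118. With mouse entered as a block it was 6.2e-05. Cmpk2 was 18.5% lower, 208 ± 11.2 against 255 ± 35.4 CPM (SD, n = 6), a log2 difference of -0.29 ± 0.09 SE (edgeR adjusted p = 0.0479). It was lower in all 6 mice, as 10.1% of genes were, but its adjusted p was close to the threshold, and it held in 11 of the 24 fits without 1 library (adjusted p up to 0.14, without wild-type pegIFN replicate 4). Without both libraries that stand apart it was 0.0925. With the mouse as a block the adjusted p was 0.00589, in a fit that called 24.6% of all genes and 11.3% lower.

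The other 8 genes did not pass edgeR's test of genotype under pegIFN, with or without the mouse as a block. Rsad2, which shares its locus with Cmpk2, was at -0.10 with an interval of 2 SE from -0.31 to 0.11. Ifi44 was at -0.23 (-0.53 to 0.06), and with the block at -0.24 (-0.43 to -0.05, adjusted p = 0.0789). It was called by limma-voom with a random mouse effect (adjusted p = 0.0489) and in 1 of the 12 block fits that left out a mouse (pegIFN mouse 3, adjusted p = 0.0191). Isg20 was at -0.11 (-0.27 to 0.04) and Ifi35 at -0.09 (-0.21 to 0.03), the last lower in all 6 mice. Rtp4 was at -0.0013 (-0.19 to 0.19), Bst2 at 0.03 (-0.14 to 0.20), Mx1 at 0.06 (-0.36 to 0.47) and Apol9b at 0.11 (-0.25 to 0.47). A test that was not passed does not show that these genes were alike in both genotypes, and the intervals of Mx1 and Apol9b were the widest. Granulocyte and monocyte markers summed to 812 to 1322 CPM in Jak2V617F pegIFN libraries and 185 to 575 CPM in wild-type ones, and erythroid markers to 222 to 524 and 497 to 893 CPM. These sums moved with the genotype and their part in the result was not tested. Of the receptor and ISGF3 genes, Jak1 was called lower in Jak2V617F cells in both treatments (-0.23 under vehicle, adjusted p = 0.00409, and -0.16 under pegIFN, adjusted p = 0.0385) and Ifnar1 under vehicle (-0.22, adjusted p = 0.0201). Without both libraries that stand apart Jak1 was called under vehicle (-0.22, adjusted p = 0.013) and not under pegIFN (-0.16, adjusted p = 0.0721), and Ifnar1 was not called under vehicle (-0.19, adjusted p = 0.0637). Of the 24 fits that left out 1 library, 10 lost the pegIFN call of Jak1 (any pegIFN library but wild-type replicate 6 and Jak2V617F replicate 3; highest adjusted p 0.0968) and 2 the vehicle call of Ifnar1 (wild-type replicate 4 and Jak2V617F replicate 2; highest adjusted p 0.0645).

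**Figure D3:**
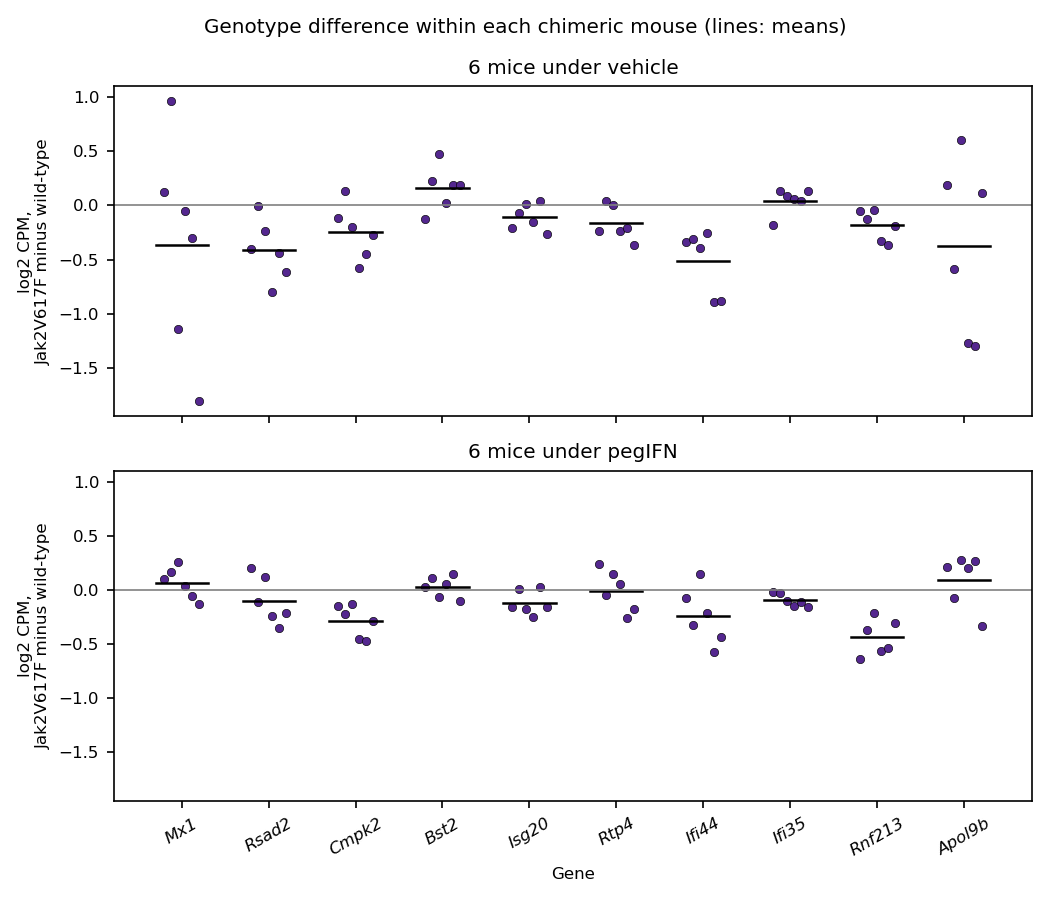
Difference in log2 CPM between the Jak2V617F and the wild-type library of each mouse, for 6 vehicle mice (top) and 6 pegIFN mice (bottom), with lines at the means. Rsad2, Ifi44 and Rnf213 are below 0 in all 6 vehicle mice, and Cmpk2, Ifi35 and Rnf213 are below 0 in all 6 pegIFN mice.

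Whether the pegIFN difference itself depended on genotype was tested as an interaction, and none of the 10 genes passed. The edgeR test called 0 of 15879 genes (0%), with 1338 genes at an unadjusted p under 0.05, among them 1 of the 10, Rsad2. DESeq2 called 38 genes and limma-voom 290, and with the mouse as a block edgeR called 528 (3.33%). None of these fits called any of the 10. For Rsad2 the pegIFN difference was larger in Jak2V617F cells by 0.32 ± 0.15 SE (adjusted p = 0.59, and 0.174 with the block). For Rnf213 it was smaller by the estimate of -0.25 ± 0.12 SE (adjusted p = 0.604, and 0.0798 with the block). The other estimates ran from -0.14 for Bst2 to 0.43 for Apol9b, and the interval of 2 SE reached 1.09 for Apol9b and 1.01 for Mx1.

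Among the 12 pegIFN libraries, once the mean of each genotype was removed, the genes did not vary as a single block. Bst2, Isg20 and Ifi35 followed one another (Pearson r 0.86 to 0.88 for log2 CPM over 12 libraries), as did Rtp4 and Ifi44 (0.89) and Mx1 and Apol9b (0.90). Rtp4 and Ifi44 had weak negative values with Isg20 (-0.29 and -0.33) and Rnf213 (-0.38 and -0.35), too small over 12 libraries to show an opposing relation. Rsad2 was correlated with its neighbour Cmpk2 at 0.75 and with Rtp4 at 0.76, whereas Cmpk2 and Rtp4 were at 0.19. These are descriptions without a test, and the libraries share scaling, depth and, in pairs, the mouse. Wild-type pegIFN replicate 5 and Jak2V617F pegIFN replicate 4 were above their group mean for all 10 genes and wild-type replicate 4 for 9, while wild-type replicates 1, 2 and 3 were above it for 1, 1 and 0.

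**Figure D4:**
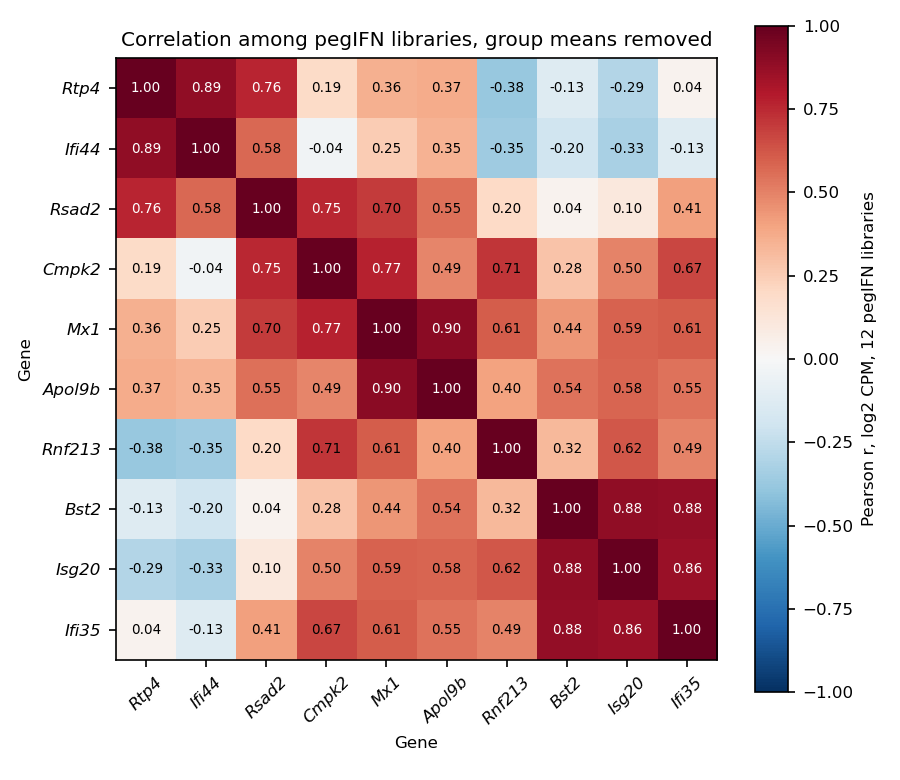
Pearson correlation of log2 CPM between each pair of genes over the 12 pegIFN libraries after removal of the group means, with the value in each cell. Rtp4 with Ifi44, Mx1 with Apol9b, and Bst2, Isg20 and Ifi35 among themselves are at 0.86 or more, and Rtp4 and Ifi44 are below 0 with Isg20 and Rnf213.

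The genes outside the 10 whose profile over those 12 libraries was most like the mean of the 10 were Lars and Atf5 (Pearson r 0.92 each), Gch1 and Gm7609 (0.91 each) and Xaf1 (0.89). They are the highest values of all genes tested outside the 10, over only 12 libraries, and no relation was tested. Rtp4 and Ifi44 themselves had r of only 0.29 and 0.16 with the mean of the other 9. Under pegIFN in wild-type cells Gch1 fell (log2 -0.31, edgeR adjusted p = 0.0136), whereas Lars, Atf5, Gm7609 and Xaf1 rose. Over all 24 libraries, where the treatment sets the correlation, the genes most like the mean were Dhx58, Ifit1, Mx2, Xaf1 and Oas1a, all at 0.997 to 0.998. Whether the 2 genotypes of a mouse went together was examined with 20 relations, 1 per gene and treatment over 6 mice. Mx1 under pegIFN had the strongest of them (r = 0.89, exact permutation p = 0.0181, and Spearman's rho = 0.94; r = 0.69 without the 2 mice farthest from the median), and no relation passed after Benjamini-Hochberg adjustment (lowest adjusted p 0.282 for r and 0.222 for rho, exact permutation tests).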

How the data were processed

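RNA of sorted stem cells was sequenced as single-end 75 bp reads. Per the submitters' processing notes, the authors trimmed reads with cutadapt 1.11 and used STAR 2.5.2a for alignment, RSEM 1.2.30 for counting and the build GRCm38; the annotation release and the library strand are not given in the sources used here. The deposited values are expected counts, in which RSEM divides reads that fit several genes, and 16.8% are not whole numbers. They were rounded before testing. Every sample column was used.

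Genes were kept with filterByExpr at a minimum count of 10 (15879 kept, 22336 removed, 99.95% of counts kept). The main test was edgeR's robust quasi-likelihood test (version 4.0.16, R 4.3.3) on TMM-scaled libraries and 4 group means, and p-values were adjusted by Benjamini-Hochberg across every gene tested. The common biological coefficient of variation was 18.6%. CPM used TMM-scaled library sizes, and CPM per kilobase the length of all exons in GENCODE M21. Log2 CPM for correlations used a prior count of 2. The depth of 24.6 to 39.7 M counts per library makes low genes, Mx1 and Apol9b under vehicle, the least precise.

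Libraries of both genotypes that carry the same recipient number in their names were taken as 1 mouse, since the labels describe both donors in every recipient. After group means were removed, the 12 pairs correlated at 0.12 to 0.42 (median 0.28). Each wild-type library was compared only with the Jak2V617F libraries of its treatment, and in 11 of 12 its partner was the most like of these. The margin could be small, as in pegIFN pair 6 (0.119, against 0.108 for the next). The labels do not give a sequencing batch per library. The library names end in a further number that recurs within each group, and what it stands for is not stated. Whether the levels follow it was not tested. Alternatives were DESeq2 1.42.0, limma-voom 3.58.1 (mouse as random block), RLE and upper-quartile factors, no filter, 1 CPM in 12 libraries, only the groups compared, the mouse or the replicate number as a block, each library left out and both libraries that stand apart left out. Leaving out their mice, and each mouse in the block fit, was added after the data were seen.

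The members and lists were chosen with earlier results of these data known. Named beside the 10 genes, by rule, are up to 4 called genes of each list with the largest change in wild-type cells, every receptor and ISGF3 gene examined (1 item is not reported here), and the 5 genes most like the members over each set of libraries. Endothelial, stromal, B cell and megakaryocyte markers were also summed: 67.2 to 178, 10.3 to 25.7 and 801 to 2762 CPM over all libraries. Promoters of Mx1 and Rtp4 were not used here.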

Additional observations from a re-analysis of the deposited data

How the results depend on the processing

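For pegIFN against vehicle, the log2 differences of the 10 genes kept their direction in all alternatives and moved by at most 0.15 in wild-type and 0.31 in Jak2V617F cells. All other settings were set against the main counts of called genes: 2018 for genotype under vehicle (2 of the 10 genes), 1364 for genotype under pegIFN (2 of the 10) and 0 for the interaction (0 of the 10). The cause of the changes was not tested.

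With the mouse as a replicate block the counts were 4944 (5 of the 10), 3910 and 528, and without the mice of the libraries that stand apart the block gave 4006, 2590 and 97. Limma-voom, in which the mouse was a random block, gave 5297 (4 of the 10), 3909 and 290, and DESeq2 38 for the interaction. Fitting only the groups compared gave 1038 genes under vehicle and 0 of the 10. Without both libraries that stand apart the counts were 1000 (0 of the 10) under vehicle and 657 (1) under pegIFN, and without their mice 0 of the 10 under vehicle and 470 genes (1) under pegIFN. With no filter 1 of the 10 was called in each genotype comparison. The replicate number as a block gave 3 genes in the interaction. Of the 10 genes, the mouse block changed no call but those of Cmpk2, Rnf213 and Bst2 under vehicle.

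Leaving out 1 library gave 950 to 2727 genes (0 to 3 of the 10) under vehicle, 571 to 2077 (1 to 2) under pegIFN and 0 to 36 in the interaction. Leaving out 1 mouse in the block fit gave 3349 to 5115 (3 to 6), 2570 to 4023 (2 to 3) and 168 to 948. Estimates near 0 changed sign without any call. Upper-quartile factors turned Tyk2 under pegIFN in Jak2V617F cells to -0.043 and the Isg20 interaction to 0.0083, which was 0.010 without both libraries that stand apart. With 1 library left out the ranges were -0.035 to 0.084 for Tyk2, -0.031 to 0.15 for Mx1, -0.0057 to 0.075 for Bst2 and -0.031 to 0.046 for Rtp4 (genotype under pegIFN), and -0.090 to 0.042 for Cmpk2 and -0.047 to 0.070 for Isg20 (interaction). With 1 mouse left out in the block fit they were -0.054 to 0.050 for Rtp4, -0.11 to 0.040 for Cmpk2 and -0.042 to 0.038 for Isg20.

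At this depth Mx1 and Apol9b had fewer than 100 counts in each vehicle library, which limits their genotype and interaction values. In the fit without the mouse, the vehicle call of Rsad2 was lost without wild-type replicate 4 and with only the groups compared, and that of Ifi44 also with no filter and without any 1 of 4 other libraries.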
